A study of Mus musculus with 6 samples.

Results

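Wwp2, the gene it carries inside it for the microRNA miR-140 (Mir140), and 6 related ubiquitin ligase genes, Wwp1, Itch, Nedd4, Nedd4l, Smurf1 and Smurf2, were followed in mammary tumours of mice given DPM or vehicle. The members were every probe set whose platform annotation named 1 of these 8 symbols alone, which gave 9 probe sets of the 21789 that named a single gene, and 8 genes of 19938. Mir140 and Wwp2 were chosen because both had lower values in DPM tumours, so that difference is given for them as a description with no test. The other 6 genes were chosen for their family.

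All tumours came from MMTV-PyMT+ female mice of the FVB strain, in which the polyoma middle T antigen is driven from a promoter active in mammary epithelium. There were 3 tumours from DPM-treated mice and 3 from vehicle-treated mice, each labelled a biological replicate, and all were taken at 15 weeks of age. Injections into the peritoneum, of DPM at 10 mg/kg or of vehicle, ran from 4 weeks of age for 11 weeks, with 5 days on and 2 off. The labels name the drug only as DPM, read here as dipyridamole from knowledge of the study. The labelled tissue was checked by a list of 6 luminal epithelial genes, 5 of them with the lower mean in DPM. Of the 6, Krt8 and Epcam, named after their values were seen, were bright in both groups. Their log2 intensities (mean ± SD, n = 3 each) were 13.47 ± 0.04 in DPM against 13.56 ± 0.21 in vehicle tumours for Krt8, and 11.52 ± 0.10 against 11.56 ± 0.13 for Epcam. The largest differences of that list were in Krt19, at -0.42 (SE 0.25), and in the alveolar regulator gene Elf5, at 0.32 (SE 0.11), whose groups did not overlap (limma adjusted p = 0.9996 for both).

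Ligases of the NEDD4 family attach ubiquitin to other proteins. Each has a catalytic HECT domain and WW domains that hold short proline-rich motifs of the target or of an adaptor protein. Their known targets include Smad proteins and receptors of the TGF-beta pathway, Notch receptors, sodium channels and transcription factors. Mir140 lies in an intron of Wwp2 and is best known from cartilage, where Sox9 drives both; in breast tissue miR-140 has been studied as a microRNA of stem-like cells.

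The microRNA is shown first because its probe set had the largest difference of the members. By the RefSeq tables (GRCm38.p6) the hairpin lies on the plus strand at chr8:107551244-107551313, inside the span of Wwp2 and on the same strand. The hairpin is 70 bases long, and the capitals mark the 21 bases of the mature 3p arm, positions 45 to 65. In the mature sequence and in the microRNA set beside it, the capitals mark the seed, bases 2 to 8, with which a microRNA pairs to its targets.
Mir140 hairpin: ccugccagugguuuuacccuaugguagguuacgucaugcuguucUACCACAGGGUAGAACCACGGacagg
mmu-miR-140-3p: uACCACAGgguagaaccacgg
mmu-miR-497b: cACCACAGugugguuuggacgugg
Of the 1738 mature mouse microRNAs listed, miR-497b was the other one with this seed. The probe set named Mir140 was matched by annotation to the precursor, and the labels describe total RNA from a silica column kit, a type that retains little RNA as short as a mature microRNA. The values below are therefore read as RNA that contains the hairpin region, and mature miR-140 was not measured apart from it.

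Mir140 (probe set 10575211) was lower in each DPM tumour than in any vehicle tumour. Its normalised log2 intensities were 7.04, 7.73 and 6.98 in DPM replicates 1 to 3 and 8.22, 8.95 and 9.06 in vehicle replicates 1 to 3. Before normalisation, the deposited intensities read 132, 202 and 131 under DPM and 289, 471 and 588 under vehicle. The groups did not overlap, with 0.50 log2 units between the highest DPM and the lowest vehicle value. The means were 7.25 ± 0.41 in DPM and 8.74 ± 0.45 in vehicle tumours (SD, n = 3 each), a difference of -1.49, or 0.355 times the vehicle level. Its mean level lay at the 40.3 percentile of single-gene probe sets. The values of DPM replicates 1 and 3 lay below 7.24, the mean level under which genes were left out, so that the size of the fold is not firm. No detection call was used here.

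Wwp2 (probe set 10575184), the host gene, encodes a ligase known to act on Smads, Notch receptors and several transcription factors. Its log2 intensities were 9.95, 10.37 and 9.95 in the DPM and 10.60, 11.15 and 10.91 in the vehicle tumours. These groups did not overlap either, and were 0.23 log2 units apart at the closest. The means were 10.09 ± 0.24 and 10.89 ± 0.28 (SD, n = 3 each), a difference of -0.80, or 0.574 times the vehicle level. Since the tumours are mixed tissue, fewer cells that express a gene and less RNA per cell cannot be told apart.

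**Figure D1:**
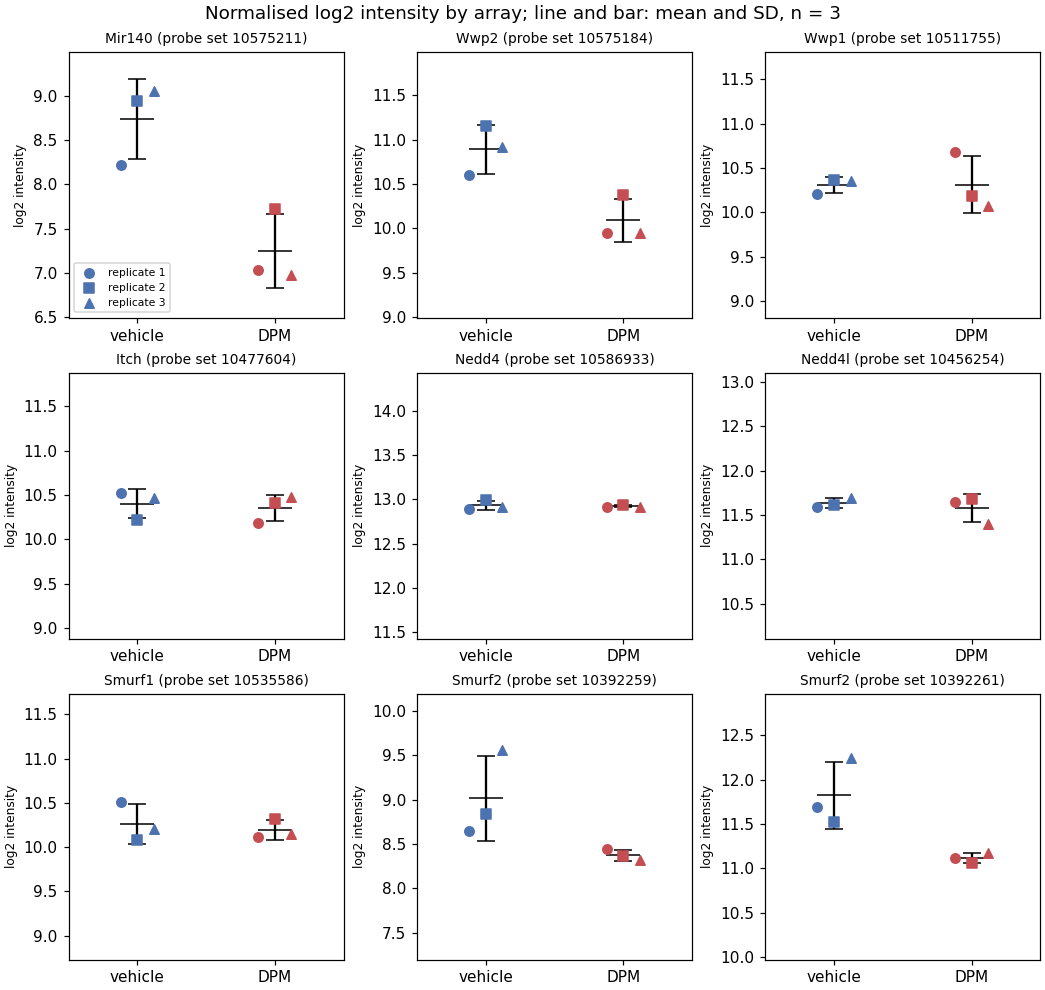
Normalised log2 intensity of the 9 probe sets on each of the 6 arrays, one panel per probe set, each with a y axis spanning 3 log2 units; points are replicates 1 to 3 and the line with bar is the mean and SD of 3 arrays. The DPM points lie wholly below the vehicle points for Mir140, Wwp2 and both probe sets of Smurf2, and overlap them for Wwp1, Itch, Nedd4, Nedd4l and Smurf1.

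Within each treatment group, Mir140 and Wwp2 shared 1 extreme tumour, and deviations from the group means are a measure the choice of members did not use. With 3 tumours per group, unrelated genes often share the highest or the lowest one, so this sharing alone shows little. Among DPM tumours, replicate 2 was the highest for both, at 0.48 log2 units above its group mean for Mir140 and 0.28 above for Wwp2. Among vehicle tumours, replicate 1 was the lowest for both, at -0.52 and -0.29. The other tumours of each group were in opposite order for the 2 genes: in the vehicle group Wwp2 was highest in replicate 2 and Mir140 in replicate 3, and in the DPM group replicates 1 and 3 swapped places, by less than 0.01 log2 units for Wwp2. Pearson's r between the deviations of the 2 genes was 0.91 over the 6 arrays, at rank 134 of the other 14952 genes by likeness to Wwp2. Their r over the 6 arrays without removing group means, 0.98, holds the difference they were chosen for. The arrays share tumour, RNA preparation and normalisation.

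**Figure D2:**
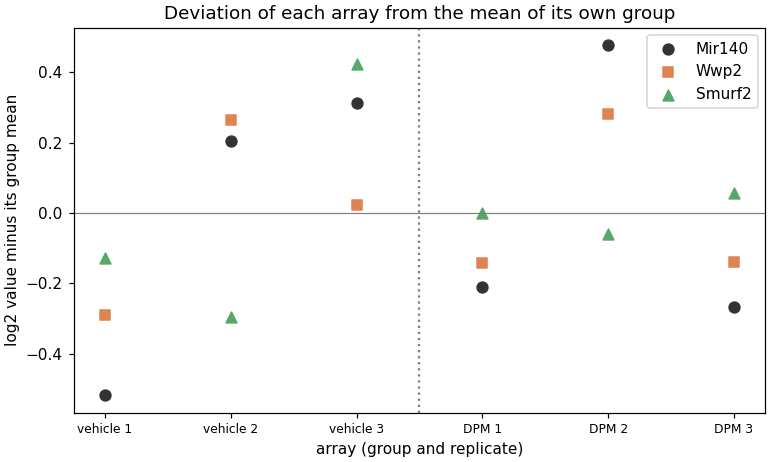
Deviation of each array from its own group mean (log2, y axis) for Mir140, Wwp2 and Smurf2 on the 6 arrays (x axis, vehicle left of the dotted line, DPM right). Mir140 and Wwp2 are both at their lowest in vehicle replicate 1 and at their highest DPM value in DPM replicate 2, while Smurf2 is at its highest in vehicle replicate 3.

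The genes most like Wwp2 over the 6 arrays, by a Pearson's r that includes the group difference, were Prkd1 (r = 0.99), a protein kinase D gene, Rassf4 (0.99), Rnf39 (0.99), B130055M24Rik (0.99) and Grhl2 (0.98), an epithelial transcription factor gene. Those most like Mir140 were Thbs2 (0.99), which encodes a matricellular thrombospondin, Grhl2 (0.99), Prkd1 (0.99), Rassf4 (0.99) and Lgr5 (0.98), the receptor for R-spondins. As the 2 genes are so alike themselves, shared entries are given by the choice. The r of the deviations from group means ran from 0.96 to 0.98 for the 5 genes listed with Wwp2 and from 0.92 to 0.97 for those listed with Mir140. These genes were picked by an r over the same arrays that includes these deviations, so high values here follow largely from that choice. Likeness of pattern did not mean likeness of size: the DPM and vehicle means of Grhl2 were 10.39 ± 0.02 and 10.48 ± 0.02, a difference of -0.09, whereas those of Thbs2 were 10.30 ± 0.23 and 10.92 ± 0.21, a difference of -0.62. Lgr5 averaged 7.60 ± 0.25 and 8.19 ± 0.22 (SD, n = 3 each).

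Other microRNA genes and their hosts showed smaller differences. Of 272 microRNA genes with a probe set, 99 passed the filter on mean level. Over these 99, the median difference was -0.01, and after Mir140 the next lowest was -0.35. The median within-group SD of these genes was 0.18 log2 units, against 0.43 for Mir140. In 32 cases the microRNA gene lay on the same strand within the span of 1 protein-coding gene that was also tested, with 25 different hosts. Both means were lower in DPM in 9 of these pairs and both higher in 7. Wwp2 with Mir140 was the 1 pair in which neither gene overlapped between groups. Values lay apart for 4 of the 99 microRNA genes and for 6.97% of all genes, so being the only such pair shows little. By size of difference it was followed by Slit2 with Mir218-1, at -0.14 for the host and -0.23 for the microRNA gene. These pairs are a description, since the Wwp2 pair was chosen for its differences.

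**Figure D3:**
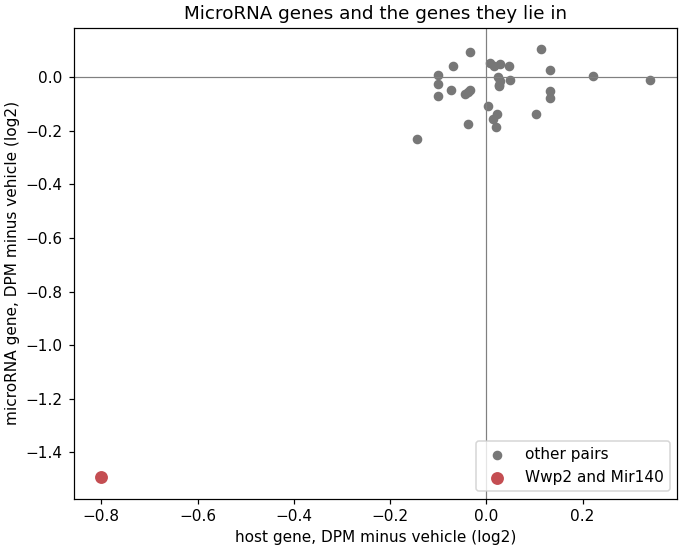
Difference between DPM and vehicle means (log2) of 32 microRNA genes (y axis) against that of the gene each lies in (x axis). The Wwp2 and Mir140 pair stands at -0.80 and -1.49, away from the other 31 pairs, whose hosts have no difference below -0.14.

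Genes that neighbour Wwp2 on the chromosome had smaller differences than Wwp2, which was chosen for its difference. The nearest tested protein-coding gene before it in RefSeq order, Nob1, which encodes a ribosome assembly factor, had means of 10.33 ± 0.05 under DPM and 10.40 ± 0.05 under vehicle (SD, n = 3 each). Its difference was -0.08 (SE 0.08, limma adjusted p = 0.9996). The nearest one after it, Psmd7, which encodes a proteasome subunit, differed by -0.01 (SE 0.08, limma adjusted p = 0.9996). Across the 3 nearest tested genes on each side, differences ran from -0.23 for Nqo1 to 0.15 for Zfhx3. DPM and vehicle values overlapped for all 6, as they did for most genes, since 6.97% of all genes lay apart. These neighbours were picked by position, after the values of Wwp2 were known.

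Among the 6 related ligases, 0 were called (limma, Benjamini-Hochberg adjusted p under 0.05), as were 0 of all 14953 genes (0%), where the lowest adjusted p was 0.676. By unadjusted p under 0.05, 1 of the 6 ligases stood out, beside 578 genes in all (3.87%). DPM and vehicle values lay apart for 1 of the 6 ligases, against 6.97% of all genes (3.48% with DPM lower and 3.49% with DPM higher). That 1 gene was Smurf2, and the other 5 had mean differences no larger than 0.07 log2 units in size.

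Smurf2 encodes a ligase that marks Smads and TGF-beta receptors for degradation, and it was the only member with 2 probe sets. On the brighter probe set (10392261) the log2 intensities were 11.11, 11.05 and 11.17 in the DPM tumours and 11.69, 11.53 and 12.25 in the vehicle tumours. The 3 DPM values lay within 0.12 log2 units of each other, and all were below the vehicle values, which spread over 0.72 units with replicate 3 the highest. The means were 11.11 ± 0.06 and 11.82 ± 0.38 (SD, n = 3 each). The difference was -0.71 (SE 0.17, 95% interval -1.11 to -0.31, unadjusted p = 0.00345, limma adjusted p = 0.949), or 0.611 times the vehicle level. The dimmer probe set (10392259) read 8.44, 8.36 and 8.32 in the DPM and 8.65, 8.83 and 9.56 in the vehicle tumours. It gave the same order of groups, without overlap, and again its highest value in vehicle replicate 3. Its difference was -0.64 (SE 0.21, limma adjusted p = 0.9997 over 16342 probe sets). Without vehicle replicate 3 the difference of the brighter probe set was -0.50, and over the single-array omissions and the other settings its adjusted p was never below 0.329.

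Smurf1, the closest relative of Smurf2 and likewise a ligase for Smads and for the small GTPase RhoA, read 10.12, 10.32 and 10.15 in the DPM and 10.51, 10.08 and 10.20 in the vehicle tumours. The groups overlapped, and the difference was -0.07 (SE 0.13, 95% interval -0.36 to 0.22, limma adjusted p = 0.9996). This interval overlaps that of Smurf2 in part, and the difference between the 2 genes was not tested.

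Wwp1 and Itch are the ligases closest to Wwp2. Wwp1, which acts on Klf transcription factors and ErbB4 among others, read 10.68, 10.19 and 10.07 in the DPM and 10.21, 10.37 and 10.36 in the vehicle tumours. DPM replicate 1 was the highest of all 6 and DPM replicate 3 the lowest, so the vehicle values lay inside the DPM range. The difference was 0.00 (SE 0.16, 95% interval -0.36 to 0.36, limma adjusted p = 0.9996), and without DPM replicate 1 it was -0.18. Itch, a ligase for Jun proteins and Notch that restrains T cell responses, read 10.18, 10.41 and 10.47 in the DPM and 10.52, 10.21 and 10.47 in the vehicle tumours. Its difference was -0.05 (SE 0.12, 95% interval -0.32 to 0.23, limma adjusted p = 0.9996).

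Nedd4, the founding member of the family, varied least. It read 12.91, 12.94 and 12.92 in the DPM and 12.89, 12.99 and 12.92 in the vehicle tumours, a range of 0.10 log2 units in the vehicle group and 0.02 in the DPM group. The difference was -0.01 (SE 0.07, 95% interval -0.16 to 0.15, limma adjusted p = 0.9996). Its deposited intensities ran from 7179 to 8494. Nedd4l, which controls the epithelial sodium channel, read 11.65, 11.68 and 11.40 in the DPM and 11.59, 11.61 and 11.69 in the vehicle tumours. DPM replicate 3 was the low value, and the difference was -0.05 (SE 0.10, 95% interval -0.28 to 0.17, limma adjusted p = 0.9996).

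**Figure D4:**
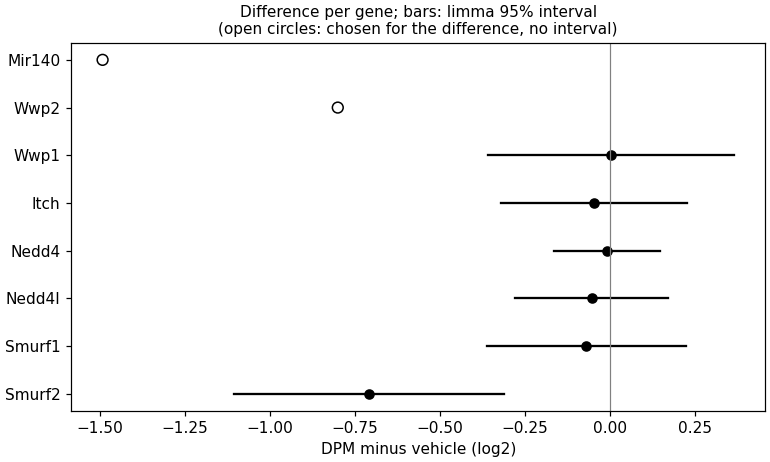
Difference between DPM and vehicle means (log2, x axis) for the 8 genes. Filled points carry limma's 95% interval, and the open circles of Mir140 (-1.49) and Wwp2 (-0.80) carry none because those genes were chosen for the difference; the interval of Smurf2 runs from -1.11 to -0.31 before any adjustment for multiple tests, and the intervals of the other 5 ligases include 0.

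The remaining genes of the pathway were taken from 5 fixed lists, and no gene of any list passed the threshold. The 2 other NEDD4-family genes, Hecw1 and Hecw2, differed by -0.02 (SE 0.10) and 0.06 (SE 0.10). Of 17 adaptors, regulators and ubiquitin-conjugating enzymes of these ligases, all 17 were tested. The mean was lower in DPM for 10 and higher for 7, with a median difference of -0.02, against 0.00 over all genes tested, of which 49.7% had the lower mean in DPM. Txnip, an arrestin-fold protein gene and target of Itch, read 12.30, 12.14 and 12.58 in the DPM and 12.30, 11.45 and 11.79 in the vehicle tumours, a difference of 0.49 (SE 0.21, limma adjusted p = 0.9996), or 0.29 without vehicle replicate 2. Wbp2, whose protein binds WW domains, read 10.85, 11.17 and 10.69 in the DPM and 11.51, 11.16 and 11.04 in the vehicle tumours, a difference of -0.34 (SE 0.16), or -0.20 without vehicle replicate 1. Both genes overlapped between the groups.

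Of 35 reported substrates of the ligases, 33 were tested. The mean was lower in DPM for 22 and higher for 11, and the median difference was -0.07. The receptor tyrosine kinase gene Erbb4 read 8.82, 8.89 and 9.33 in the DPM and 8.46, 8.01 and 8.84 in the vehicle tumours, a difference of 0.57 (SE 0.22, limma adjusted p = 0.9996), or 0.36 without vehicle replicate 2. The adaptor gene Grb10 read 9.42, 8.85 and 9.57 in the DPM and 9.95, 9.32 and 9.96 in the vehicle tumours, a difference of -0.46 (SE 0.23), or -0.24 without DPM replicate 2. Both overlapped between groups. Values lay apart for 4 of the 33, which were named after their values were seen, where 6.97% of all genes did. These were the hedgehog receptor gene Ptch1 (-0.26), the signal transducer genes Smad2 (-0.15) and Smad5 (-0.09), and, higher in DPM, the kinase gene Lats1 (0.14).

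Of 20 genes reported as targets of miR-140, 16 passed the filter on mean level. The mean was lower in DPM for 11 and higher for 5, with a median difference of -0.02. The one with the largest difference was Sox9, a transcription factor gene that stands in 2 lists, as a reported target and as a known activator of Wwp2 and Mir140. Sox9 read 11.91, 11.99 and 11.65 in the DPM and 12.42, 12.08 and 12.56 in the vehicle tumours. The groups did not overlap, and the difference was -0.50 (SE 0.14, 95% interval -0.83 to -0.17, unadjusted p = 0.00787, limma adjusted p = 0.9996). Next was Pdgfra, a growth factor receptor gene, at -0.25 (SE 0.19), with its lowest value, 8.70, in DPM replicate 3; without that array it was -0.024, and without both arrays numbered 3 -0.072. The target list was not split by arm, and some of its genes are known as targets of miR-140-5p, to which the 3p seed shown above does not apply. The histone deacetylase gene Hdac4, a classic target of the 5p arm in cartilage and named after its value was seen, differed by -0.01 (SE 0.08).

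Of the 5 genes listed as regulators of Wwp2 and Mir140, 4 were tested and 3 had the lower mean in DPM, with a median difference of -0.33. Sox6, a partner of Sox9 in cartilage, read 8.51, 8.37 and 8.26 in the DPM and 8.70, 8.67 and 9.30 in the vehicle tumours, without overlap. Its difference was -0.51 (SE 0.17, unadjusted p = 0.0193, limma adjusted p = 0.9996). Sox5 and Esr1 were named to complete the list. Sox5, the other partner, differed by 0.06 (SE 0.10), and the oestrogen receptor gene Esr1 by -0.16 (SE 0.13). Vehicle replicate 3 held the highest value of Sox6, Sox9, Smurf2 and Mir140, though not of Wwp2. Pearson's r of the deviations from group means over the 6 arrays, as a description, was -0.13 for Wwp2 with Sox9, 0.0024 with Sox6 and -0.20 with Smurf2, and for Mir140 it was 0.22, 0.39 and 0.20. Without both arrays numbered 3 the difference was -0.25 for Sox6 (-0.31 without vehicle replicate 3 alone), -0.30 for Sox9, -0.53 for Smurf2, -1.20 for Mir140 and -0.72 for Wwp2.

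**Figure D5:**
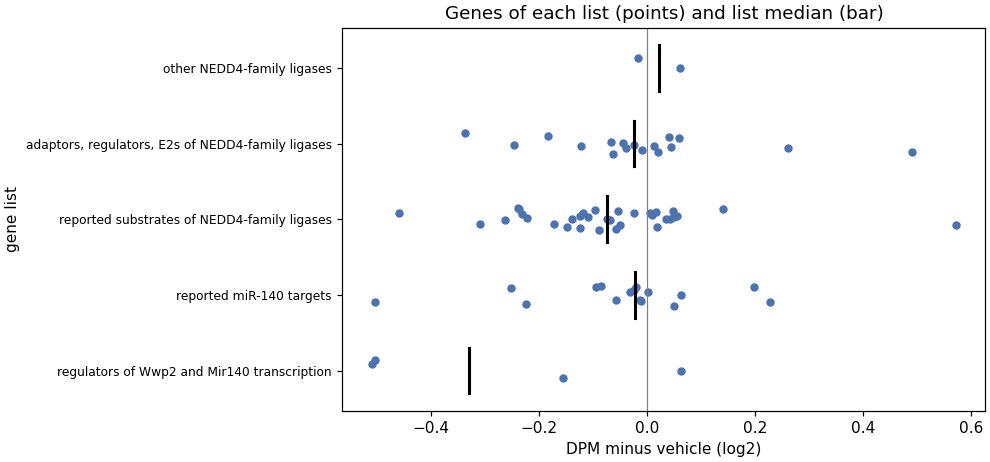
Difference between DPM and vehicle means (log2, x axis) of each tested gene in the 5 lists (y axis); points are genes and bars list medians. Medians of the 4 larger lists were -0.02 for adaptors, -0.07 for substrates, -0.02 for miR-140 targets and -0.33 for the 4 regulators tested, of which Sox6 and Sox9 stood at -0.51 and -0.50.

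Marker genes of some cell types had mostly lower means in DPM beside Mir140, Wwp2 and Smurf2, and those of others mostly higher ones. Over all genes tested, 49.7% had the lower mean in DPM. Skeletal muscle markers were higher for 5 of 5 tested, endothelial for 4 of 5 and adipocyte for 3 of 4, whereas T cell markers were lower for 3 of 3. Basal and myoepithelial markers had the lower mean in DPM for 7 of 7 genes, and their summed level, as normalised linear intensity, was 4618 to 6326 on DPM and 7137 to 8849 on vehicle arrays. The basal keratin genes Krt14 and Krt5 had the largest differences of that list, at -0.77 (SE 0.15, limma adjusted p = 0.867) and -0.62 (SE 0.25, adjusted p = 0.9996). Gene by gene, values lay apart for 2 of the 7, Krt14 among them, against 6.97% of all genes, and Krt5 overlapped between groups. Fibroblast markers were lower for 7 of 7, with summed levels of 4823 to 9998 and 8340 to 10377, and the lowest sum was on DPM replicate 3. Macrophage markers were lower for 6 of 6, with sums of 7941 to 9820 and 8804 to 11073. Luminal markers were lower for 5 of 6, with sums of 30061 to 33652 and 29611 to 34538. Cartilage markers, listed because Wwp2 and Mir140 are abundant there, were lower for 4 of the 5 tested of 8, with sums of 2849 to 3060 and 2910 to 3688. Most of each of these sums came from Col9a1, named after its values were seen, which differed by -0.07 (SE 0.15). The lowest deposited intensity of any marker tested was 118. The lower quartile of all probe sets ran from 111 to 121 over the arrays, so detection of the dimmest markers is not shown. Krt14 was the only marker whose likeness to Wwp2 and Mir140 was listed. Pearson's r of the deviations from group means with Krt14 was -0.50 for Wwp2 and -0.71 for Mir140. Over the 6 arrays without removing group means it was 0.69 and 0.68. The part of these cell types in the differences was not tested.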

How the data were processed

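RNA from 6 tumours was measured on 1-colour Affymetrix arrays, with biotin-labelled cRNA per the labels' protocols. The deposited values, for 35556 probe sets, were treated as linear intensities, as large whole numbers; their scale is not stated, and every log2 difference rests on this reading. What the authors did for background, summarisation and scaling was not given in the sources used here. Deposited medians ran from 270 to 301 and upper quartiles from 717 to 887, the highest 2 on the arrays numbered 3. After a floor of 1, log2 values were quantile-normalised. GEO's platform annotation named 1 gene for 21789 probe sets, several for 1621 and none for 12146. Of the single-gene probe sets, 21698 were matched to a current symbol by Entrez identifier, whether or not the symbol differed, and 91 kept the annotation's symbol. Each gene was represented by its brightest probe set on average, and 4985 of 19938 genes below the 25th percentile were left out. DPM was compared with vehicle by limma 3.58.1 in R 4.3.3 (lmFit, eBayes with trend, two-sided, Benjamini-Hochberg over 14953 genes, threshold 0.05). The test was tried on simulated data. Samples were grouped by title. With 3 arrays per group, their number limits precision. The p-values rest on the spread between these tumours, which eBayes moderates by a trend fitted over all genes.

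The members and lists were chosen with earlier results of these data known. Genes named are the members, of each pathway list those called or otherwise the 2 with the largest differences, and the 5 most like Wwp2 and Mir140; others are marked in the text. T cell (3 of 5 tested), endothelial (5 of 5), adipocyte (4 of 6) and skeletal muscle (5 of 6) markers had median differences of -0.07, 0.09, 0.09 and 0.11, and of 3 B cell markers 0 passed the filter. Sequences are from RefSeq tables; Mir140 was the 1 member matched there. Coordinates are those of the sequences, as no build of the array was found in the labels.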

Additional observations from a re-analysis of the deposited data

How the results depend on the processing

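Under 17 other settings (2 other filters, median centring, no normalisation between arrays, 16 added before log2, 2 other treatments of probe sets, eBayes without trend or robust, array weights, the replicate block and each array left out) and 1 chosen after seeing the data (without both arrays numbered 3), limma called 0 genes and 0 of the 6 ligases. The smallest adjusted p was 0.184, and 316 to 753 genes had an unadjusted p under 0.05. Mir140 stayed lower in DPM, from -1.75 to -1.34 with 1 array left out and from -1.51 to -1.20 otherwise; the filter at the 50th percentile removed it. Wwp2 ran from -0.95 to -0.67 with 1 array left out and Smurf2 from -0.86 to -0.50. Of 24 genes followed, 17 kept their sign, and the 7 that did not had main differences of at most 0.07. With 1 array left out, Wwp1 ran from -0.18 to 0.12, Itch from -0.14 to 0.038, Nedd4 from -0.030 to 0.021, Nedd4l from -0.11 to 0.036, Smurf1 from -0.16 to 0.056, Hecw1 from -0.056 to 0.033 and Hecw2 from -0.012 to 0.12. Without normalisation between arrays Wwp1 was -0.0073 and Nedd4 0.0074; Nedd4 was 0.023 with median centring and 0.012 with array weights. Without both arrays numbered 3, Nedd4l was 0.067 and Hecw1 0.034. The cause of these sign changes was not tested.

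The replicate numbers gave correlations of deviations from group means of -0.12, 0.11 and 0.37 for the pairs 1 to 3, the last being the highest of all 9 between the groups. DPM replicate 1 correlated best with vehicle replicate 2 (0.17), so the numbers were not taken to pair the samples. With the replicate block, 0 genes were called, 723 had an unadjusted p under 0.05, and the adjusted p of Smurf2 was 0.793.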
